A study of Mus musculus with 2 samples.

Results

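The genes described here are 8 members of the interleukin-17 and interleukin-23 axis, taken by their symbols from the 55357 genes counted in 2 mouse single-cell libraries: Il17a, Il17f, Il22, Il23r, Il23a, Il6, Il17ra and Trdc. Each symbol occurs once in the files. Both libraries carry colon as the tissue label, and they differ in the label for Runx3, a transcription factor of T cells and natural killer (NK) cells: 1 library is labelled WT and 1 is labelled KO. The series concerns Runx3 and the entry of NK cells into colorectal cancer. The sources used here do not give the strain, the age and number of animals, the treatment, the tumour model or which part of Runx3 was deleted. With 1 library per group there is no replicate check, so no test is given, and every interval is a 95% interval of counting error only.

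In this axis, IL-23 is made by myeloid cells as a pair of the p19 subunit, encoded by Il23a, and the p40 subunit, encoded by Il12b, which is shared with IL-12. IL-23 acts on lymphocytes that carry its receptor Il23r, and IL-6 helps to turn naive CD4 T cells into IL-17 producers. These cells, and gamma delta T cells that are programmed early for the same task, release IL-17A, IL-17F and IL-22, which act on epithelial, stromal and myeloid cells. Il17ra encodes the receptor chain shared by several IL-17 cytokines, and Trdc encodes the constant region of the delta receptor chain, which marks gamma delta T cells. In the gut these cytokines guard the epithelial barrier, and in colon tumours they are known for drawing in neutrophils.

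The positions are those of mm10 with GENCODE M21. Il17a (chromosome 1, 20730905 to 20734496, plus strand) and Il17f (chromosome 1, 20777146 to 20790617, minus strand) are neighbours. Il22 (118204942 to 118210047, plus) and Il23a (128296139 to 128298752, minus) are both on chromosome 10, and Il23r (67422932 to 67491855, minus) and Il17ra (120463247 to 120487559, plus) are both on chromosome 6. Il6 is on chromosome 5 (30013114 to 30019981, plus) and Trdc on chromosome 14 (54142851 to 54148868, plus). The 250 bases upstream of the RefSeq start (GRCm38.p6) are printed for the neighbouring ligand genes Il17a and Il17f, which the text compares cell by cell, and for the upstream cytokine Il6: chr1:20730655-20730904 for Il17a (plus), chr1:20784271-20784520 for Il17f (minus, inside the longer GENCODE gene) and chr5:30012864-30013113 for Il6 (plus). Capitals mark TGTGGT, the core letters bound by RUNX factors, and AGGTCA, core letters bound by many nuclear receptors, in Il17a and Il17f, and in Il6 an NF-kappaB-type motif (GGG, any 3 bases, then TTCC), each searched on both strands.
Il17a: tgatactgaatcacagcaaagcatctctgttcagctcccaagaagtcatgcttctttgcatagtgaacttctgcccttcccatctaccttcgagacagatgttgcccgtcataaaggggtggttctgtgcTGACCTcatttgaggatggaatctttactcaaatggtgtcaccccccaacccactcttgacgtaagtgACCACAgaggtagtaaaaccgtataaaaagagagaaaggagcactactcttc
Il17f: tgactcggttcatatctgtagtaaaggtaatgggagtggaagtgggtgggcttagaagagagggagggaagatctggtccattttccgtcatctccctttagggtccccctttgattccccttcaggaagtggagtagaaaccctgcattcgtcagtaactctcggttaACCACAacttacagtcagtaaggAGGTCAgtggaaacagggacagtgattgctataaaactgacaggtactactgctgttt
Il6: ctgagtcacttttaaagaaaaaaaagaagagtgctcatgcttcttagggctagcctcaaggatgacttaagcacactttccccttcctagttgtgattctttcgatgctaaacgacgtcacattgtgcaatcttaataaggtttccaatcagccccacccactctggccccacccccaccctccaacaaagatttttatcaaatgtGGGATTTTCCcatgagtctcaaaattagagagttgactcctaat
The RUNX letters start 52 bases before the Il17a start and 81 before the Il17f start, both times on the opposite strand as ACCACA. The nuclear receptor letters start 120 bases before the Il17a start as TGACCT, and 58 before the Il17f start. GGGATTTTCC starts 44 bases before the Il6 start. No 2 marked matches overlap. Among 32851 RefSeq windows of this length, 14% held TGTGGT, 14% held AGGTCA, 2.23% held both of these and 4.65% held the NF-kappaB-type motif. The Il22 window held none of the 3 motifs, and the Il23r window held the nuclear receptor letters at 2 places and the NF-kappaB-type motif at 1. These matches are descriptions of letters and were not tied to any measured binding.

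The WT library gave 8343 kept cells with a median of 8281 UMIs (unique molecule counts), and the KO-labelled library gave 5194 with a median of 9350.5. The libraries share 14 cell barcodes among the kept cells. Runx3 was counted in both libraries. It was 443 UMIs per 1000000 (CPM) in all gated T cells of WT and 343 CPM in those of the KO-labelled library, 436 and 378 CPM in gamma delta T cells, and 690 and 849 CPM in NK cells. Since the deleted part is not known, these counts do not settle the label. Cells were also sorted by Xist and 4 Y-linked genes. In the WT library 79.5% of cells were male-type (Y-linked UMIs, no Xist) and 1 cell was female-type. The KO-labelled library held 24.1% male-type, 54.7% female-type and 8.07% both-type cells, and so holds cells of both sexes. The sex of the cells and the Runx3 label therefore cannot be told apart over whole libraries. Levels of male-type cells alone are given for Il17a in T cells and for Il23r in all T cells and other T cells. They are also given for Il23a, Il6 and Il17ra in macrophage or monocyte cells. The other differences, among them those in dendritic cells, of Il22, of the receptor chains and of the gene lists, are given without them.

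T cells were gated by UMIs of at least 2 of the 3 Cd3 genes and no more macrophage than lymphocyte marker UMIs, which gave 1175 cells in the WT library and 473 in the KO-labelled library. Gamma delta T cells had at least 2 Trdc UMIs and a UMI of Trgc1, Trgc2 or Trgc4, and numbered 57 and 17. They were 4.85% (exact binomial interval 3.69 to 6.24) and 3.59% (2.11 to 5.69) of T cells, a ratio of 0.741 (0.404 to 1.29) whose interval includes 1. CD4 T cells numbered 121 and 137, or 10.3% and 29.0% of T cells, and CD8 T cells 708 and 178, or 60.3% and 37.6%. The remaining T cells, called other T cells below, had no UMI of Cd4, Cd8a or Cd8b1, or had UMIs of both coreceptors, and numbered 289 and 141. A further 457 and 215 barcodes passed the Cd3 gate but had more macrophage than lymphocyte marker UMIs, and are kept apart.

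Il17a, the founding cytokine of the family, had its highest level (CPM) among the T cell gates in gamma delta T cells of both libraries. They held 46.0% of all Il17a UMIs in WT and 13.6% in the KO-labelled library, where other T cells held 39.2% and barcodes with T cell and macrophage RNA 32.2%. In these cells the WT library had 163 Il17a UMIs, or 530 CPM (exact Poisson interval 452 to 618), and the KO-labelled library had 64, or 654 CPM (504 to 835). The ratio was 1.23 (0.909 to 1.66), and the intervals overlap. Il17a was detected in 23 of 57 and in 8 of 17 gamma delta T cells, with up to 20 and 15 UMIs in a cell. At an equal depth of 1000 UMIs per cell the shares were 24.6% (14.1 to 37.8) and 41.2% (18.4 to 67.1), against 0.0726% and 0.0551% of macrophage or monocyte cells, which have a higher median depth (9024 and 10025.5 UMIs, against 3707 and 4919). NK cells had no Il17a UMI in 254 and 80 cells, which allows a share of up to 1.18% and 3.75% of cells with a UMI.

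In other T cells and CD4 T cells, Il17a was higher in the KO-labelled library. In macrophage or monocyte cells it was lower there, with 33 UMIs in WT and 10 in the KO-labelled library. Of these WT UMIs 27 were in 1 cell, and the lower level rests on that cell. In other T cells Il17a was 80.1 CPM (65.4 to 97.0, 104 UMIs) in WT and 221 CPM (190 to 255, 185 UMIs) in the KO-labelled library, a ratio of 2.76 (2.16 to 3.54). In CD4 T cells it was 21 CPM (14 UMIs in 5 cells) and 55.3 CPM (54 UMIs in 8 cells), a ratio of 2.63 (1.44 to 5.12). In CD8 T cells it was near background, with 2 UMIs in each library. On the log2 scale, with 5 CPM added to both sides, the differences were 1.41 in other T cells, 1.21 in CD4 T cells and 1.04 in all T cells. A difference past 1 towards the KO-labelled library was reached by 2.95%, 2.54% and 1.11% of all genes with at least 20 UMIs in these populations, and one past 1 in either direction by 5.05%, 4.1% and 1.33%.

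Few cells carried this excess. Il17a UMIs were found in 22 of 289 and in 15 of 141 other T cells, and the top 2 cells of the KO-labelled library held 64 and 41 of its 185 UMIs. Without the top cell of each library, other T cells had 64.2 CPM in WT and 146 CPM in the KO-labelled library, and all T cells 39.1 and 72.9 CPM, a log2 difference of 0.823 that no longer passed 1. At an equal depth of 1000 UMIs the shares of other T cells with Il17a were 5.61% (3.24 to 8.96) and 6.43% (2.98 to 11.9), with overlapping intervals. This left out 4 and 1 other T cells of lower depth. For CD4 T cells the same shares were 2.48% (3 of 121) and 2.92% (4 of 137).

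**Figure D1:**
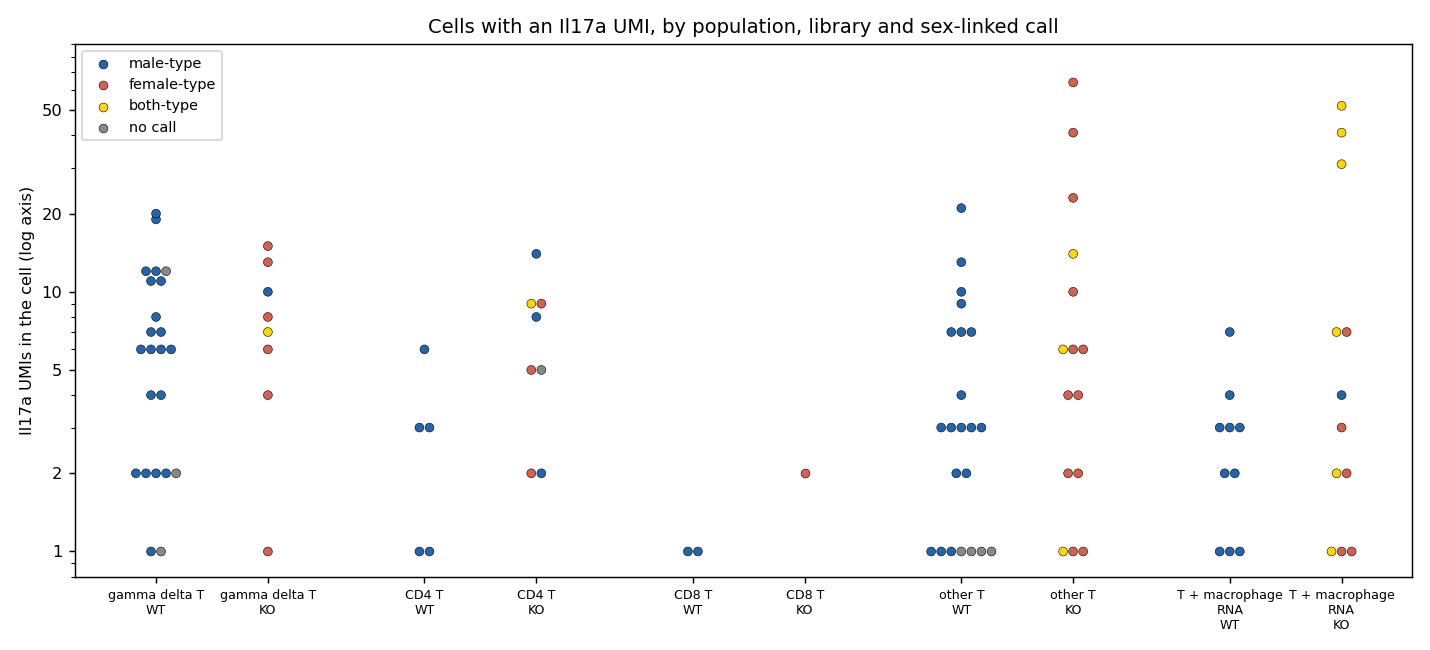
Each point is a cell with at least 1 Il17a UMI, by gated population and library on the x axis and Il17a UMIs in the cell on a log y axis, with colours for the sex-linked call. The cells with 64 and 41 UMIs among other T cells of the KO-labelled library are female-type, and no male-type cell is among its 15 other T cells with Il17a.

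The sex-linked call divided the Il17a excess. Among other T cells of the KO-labelled library, 85 female-type cells held 164 Il17a UMIs (352 CPM, 301 to 411) and 25 male-type cells held 0. A count of 0 allows 3 counts, so these 25 cells do not show that Il17a was absent. Male-type other T cells of the WT library had 100 UMIs in 214 cells, or 92.5 CPM (75.3 to 113). Over all gated T cells, male-type cells had 44.7 CPM (39.5 to 50.5) in WT and 37.7 CPM (26.1 to 52.7) in the KO-labelled library, where female-type cells had 139 CPM (121 to 158). The male-type T cells with Il17a in the KO-labelled library had 14, 10, 8 and 2 UMIs, so the 37.7 CPM rests on few cells. Among gamma delta T cells of that library, 6 male-type cells had 314 CPM (10 UMIs in 1 cell) and 9 female-type cells had 1104 CPM (47 UMIs in 6 cells). In CD4 T cells the order was different, with 87.0 CPM (24 UMIs) in 39 male-type and 35.7 CPM (16 UMIs) in 72 female-type cells of the KO-labelled library, against 23.1 CPM in 101 male-type WT cells. The higher Il17a of all T cells and of other T cells in the KO-labelled library was therefore not seen among male-type cells, whereas that of CD4 T cells was, on 3 cells with Il17a.

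The receptor chains detected in T cells with Il17a also differed between the libraries. In the WT library, 52.3% of the Il17a UMIs of T cells were in cells with Trdc and no Trac, and 21.2% in cells with Trac (the alpha chain) and no Trdc. In the KO-labelled library these were 22.0% and 74.4%. Of the 227 UMIs behind the 74.4%, 64 were in 1 cell and 41 in another. T cells with Il17a had Trdc in 25 of 52 cases in WT and in 10 of 32 in the KO-labelled library, and Trac in 19 and 23. Neither chain was found in 11 and 1 of the T cells with Il17a, whose median depths were 3028.5 and 4471 UMIs. The parts of depth and of the sex-linked call in the chain difference were not tested. A Trbc2 (beta chain constant region) UMI was present in 43 of 52 and 28 of 32 of them, and also in 86.0% and 82.4% of gated gamma delta T cells, so Trbc2 transcripts did not separate the chains here.

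Cells with Il17a carried other genes of the type 17 programme. Among WT T cells, Il23r was found in 35 of 52 cells with Il17a and in 3.92% of the other 1123 cells, and Il1r1 (the IL-1 receptor) in 43 of 52 and in 3.12%. In the KO-labelled library, Il23r was found in 23 of 32 cells with Il17a and in 5.90% of the other 441, and Il1r1 in 19 of 32 and in 8.39%. Blk, a kinase of IL-17 producing gamma delta T cells, was in 30 of 52 and 10 of 32 cells. The interferon gamma gene Ifng, the type 1 cytokine, was in 2 of 52 and 2 of 32, against 49.2% and 39.0% of T cells without Il17a. The latter include the CD8 T cells, 60.3% and 37.6% of all T cells. Among other T cells alone, Ifng was in 0 of 22 and 2 of 15 cells with Il17a, against 16.9% and 15.9% without. Among CD4 T cells it was in 0 of 5 and 0 of 8, against 18.1% and 24.8%. Cells with Il17a had fewer UMIs than the rest (medians 3028.5 and 4345 in WT, 4471 and 5163 in the KO-labelled library), so greater depth does not accompany these shares.

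Within the gamma delta gate the same division was visible in single genes. Scart1, a scavenger receptor of IL-17 producing gamma delta T cells, had a UMI in 23 of 23 WT cells with Il17a and 12 of 34 without, and in 8 of 8 and 4 of 9 cells of the KO-labelled library. The V segment Trgv6, typical of tissue IL-17 producers, was in 5 of 23 and 2 of 8 cells with Il17a and in 1 of 34 and 0 of 9 without. Ifng was in 0 of 23 and 0 of 8 cells with Il17a, and in 12 of 34 and 1 of 9 without. Ccr6, a chemokine receptor of many IL-17 producers, had no UMI in gamma delta T cells of either library.

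Il17f, the close relative of Il17a, was rare. It had 39 UMIs in each library, in 32 and 22 cells, and in all gated T cells it was 2.98 CPM (1.82 to 4.6) in WT and 3.32 CPM (1.66 to 5.94) in the KO-labelled library. Gamma delta T cells had 3 and 1 UMIs, CD4 T cells 7 and 7, and other T cells 10 and 3. Of T cells with Il17a, 8 of 52 and 5 of 32 also had Il17f. Its highest count in a cell, 13 UMIs, was in a both-type barcode of the KO-labelled library with T cell and macrophage RNA, which also had 41 Il17a UMIs.

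Il22, which encodes a cytokine of epithelial repair, was found in 2 T cells of the WT library and 6 of the KO-labelled library, and had no UMI in gamma delta T cells of either. In all T cells it had 12 UMIs (1.79 CPM, 0.924 to 3.12) and 46 UMIs (13.9 CPM, 10.2 to 18.5), a ratio of 7.77 (4.05 to 16.1). A single other T cell held 11 of the 12 WT UMIs, and 2 cells of the KO-labelled library held 23 and 12 of its 46. The first of these is a both-type other T cell, and the second a male-type Foxp3-negative CD4 T cell that also had 8 Il17a UMIs. CD4 T cells had 18 Il22 UMIs in the KO-labelled library and 0 in WT. With so few cells the difference rests on single cells of each library. The epithelial receptor chain Il22ra1 had no UMI in T cells, macrophage or monocyte cells or dendritic cells of either library.

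**Figure D2:**
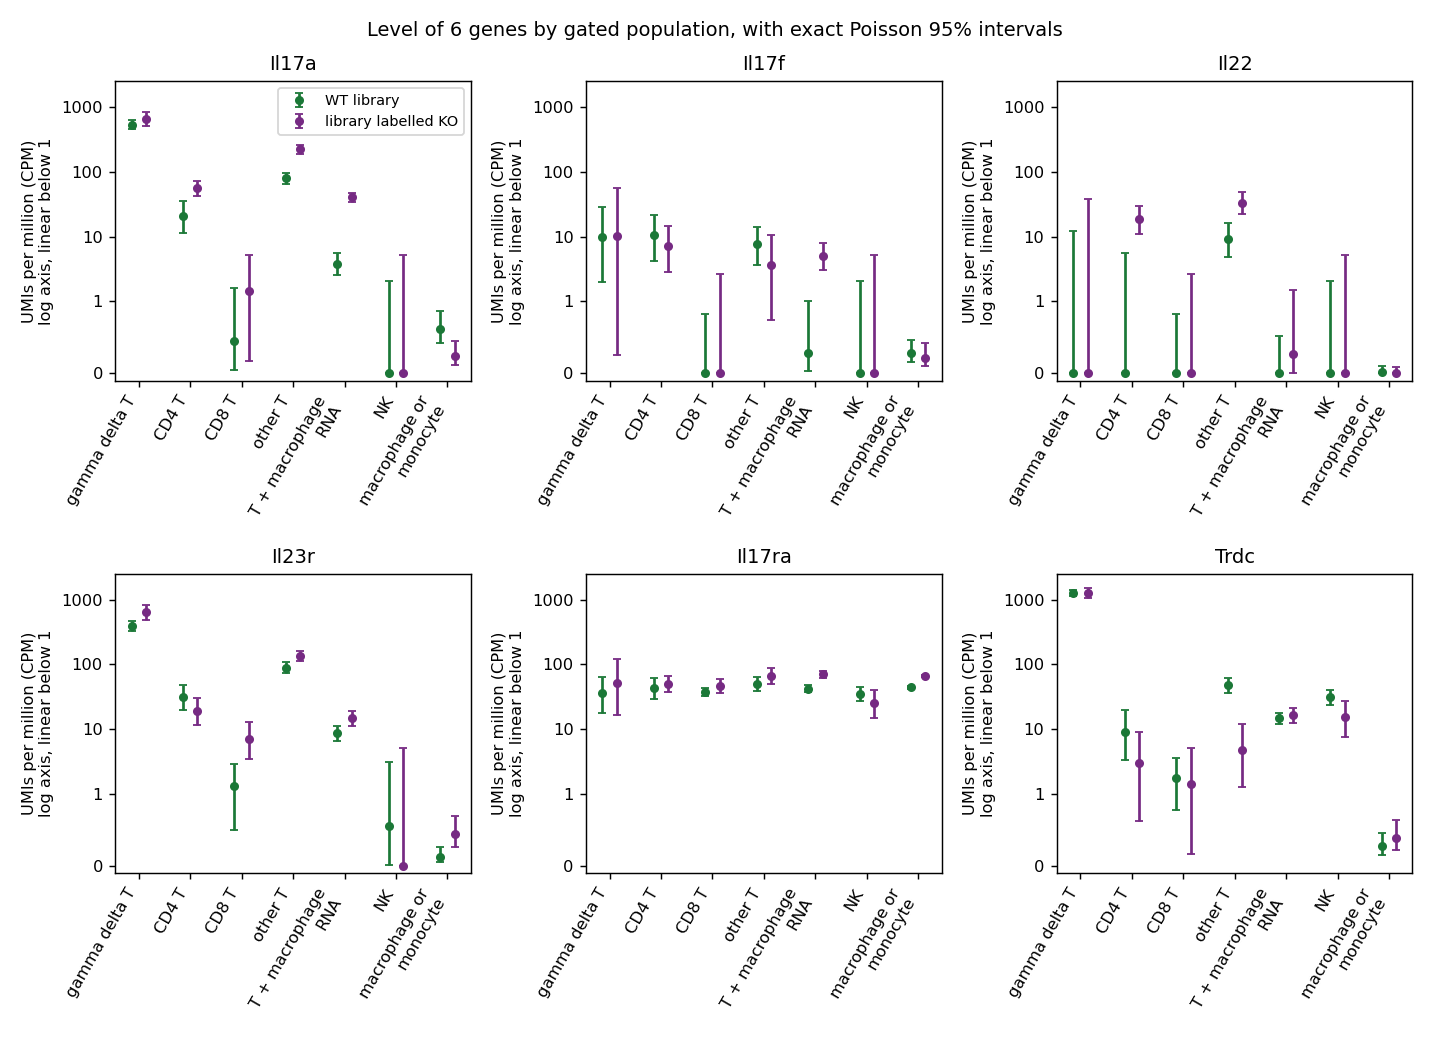
CPM of 6 genes in 7 gated populations (log axis, linear below 1), with the WT library in green, the KO-labelled library in purple and exact Poisson 95% intervals. Il17a and Il23r are highest in gamma delta T cells of both libraries (530 and 654 CPM, 393 and 634 CPM), Il17ra is spread over all 7 populations, and Trdc is highest in the gate that uses it.

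Il23r, the IL-23 receptor chain, followed Il17a across the T cell gates. It was highest in gamma delta T cells, with 393 CPM (326 to 470, 121 UMIs in 29 of 57 cells) in WT and 634 CPM (486 to 812, 62 UMIs in 12 of 17 cells) in the KO-labelled library, a ratio of 1.61 (1.17 to 2.21). Other T cells came next at 89.3 CPM (73.8 to 107) and 136 CPM (112 to 164), a ratio of 1.52 (1.17 to 1.99). CD4 T cells had 31.5 and 19.4 CPM on 21 and 19 UMIs, a ratio of 0.617 (0.314 to 1.20). In all T cells it was 39.3 CPM (34.7 to 44.4) and 61.9 CPM (53.7 to 70.9). None of these Il23r differences passed a log2 ratio of 1.

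As for Il17a, the higher Il23r of all T cells and of other T cells in the KO-labelled library was in its female-type cells. In all T cells, male-type cells had 36.4 CPM (31.7 to 41.7) in WT and 28.8 CPM (18.8 to 42.2) in the KO-labelled library, against 96.3 CPM (81.9 to 112) in its female-type cells. Among other T cells, 85 female-type cells held 108 of the 114 Il23r UMIs and 25 male-type cells held 1.

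Dendritic cells were the main myeloid place of Il23r. They had 48 UMIs in 24 of 338 cells (14.1 CPM, 10.4 to 18.7) in WT and 25 UMIs in 12 of 242 cells (7.88 CPM, 5.10 to 11.6) in the KO-labelled library, a ratio of 0.559 (0.330 to 0.924). At an equal depth of 1000 UMIs the shares of dendritic cells with Il23r were 1.20% and 1.24%. Macrophage or monocyte cells had 0.130 and 0.442 CPM, and mesenchymal cells 1 and 0 UMIs.

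Trdc was used for the gamma delta gate, so its level there (1271 and 1267 CPM) is a description. The gate held 59.5% of the Trdc UMIs in WT and 55.6% in the KO-labelled library. Outside it, Trdc was 47.7 CPM (36.6 to 61.2, 62 UMIs in 17 cells) in WT other T cells and 4.78 CPM (1.30 to 12.2, 4 UMIs in 3 cells) in those of the KO-labelled library, a ratio of 0.10 (0.0264 to 0.269). Other T cells are what the gamma delta gate left behind, so their Trdc level was shaped by that gate and is a description too. Their median depths were 3044 and 4094 UMIs. NK cells had Trdc UMIs in 38 of 254 and 8 of 80 cells, at 31.0 and 15.3 CPM. Over all kept cells Trdc was 8.65 CPM (8.0 to 9.33) and 4.07 CPM (3.55 to 4.64). With its gate genes, the gamma delta T cells had Trgc1 in 78.9% and 76.5% of cells and Trac in 21.1% and 17.6%.

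RNA of other cell types was present in the T cell gates. All 11 macrophage markers had a UMI in WT gamma delta T cells (summed 1109 CPM) and 9 of 11 in those of the KO-labelled library (1237 CPM), against 20044 and 13985 CPM in macrophage or monocyte cells. In gamma delta T cells the 6 mesenchymal markers summed to 1580 CPM in WT and 10.2 CPM in the KO-labelled library, where 5 of them were at 0, and the 6 neutrophil markers were at 0 in both. In other T cells the mesenchymal markers summed to 8.47 and 1659 CPM. In CD4 T cells the neutrophil markers summed to 13.5 and 451 CPM, and the 6 B or plasma cell markers to 13.5 and 1011 CPM. The part of this RNA in the differences above was not tested. The barcodes with T cell and macrophage RNA had 27 Il17a UMIs in WT and 152 in the KO-labelled library, of which 52, 41 and 31 were in 3 both-type barcodes. In the WT library, 27 of the 33 Il17a UMIs of macrophage or monocyte cells were in 1 cell.

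Among the upstream cytokines, Il23a was mainly in macrophage or monocyte cells, which held 88.3% and 86.0% of its UMIs, and it was higher there in the KO-labelled library. It had 189 UMIs in 113 of 5579 WT cells (3.51 CPM, 3.03 to 4.05) and 398 UMIs in 196 of 3710 cells of the KO-labelled library (9.76 CPM, 8.83 to 10.8), a ratio of 2.78 (2.33 to 3.32). The top cells held 14 and 18 UMIs. At an equal depth of 1000 UMIs the shares were 0.327% (0.194 to 0.516) and 0.964% (0.672 to 1.34), against 0 of 1168 and 1 of 471 T cells. Dendritic cells had 1 and 5 UMIs in 338 and 242 cells. Neutrophils had 6 UMIs in 2 of 18 WT cells (60.8 CPM), cells with a median of 544.5 UMIs, and 7 UMIs in 3 of 108 cells of the KO-labelled library (11.2 CPM). In the neutrophil gate the 11 macrophage markers summed to 22703 and 9421 CPM, against 20044 and 13985 CPM in macrophage or monocyte cells. The part of macrophage RNA in the neutrophil levels was not tested.

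Il12b, the gene of the other IL-23 subunit, had its higher level in dendritic cells. It was 370 and 363 CPM in dendritic cells, a ratio of 0.980 (0.904 to 1.06), and 13.2 and 10.4 CPM in macrophage or monocyte cells, a ratio of 0.788 (0.697 to 0.890). Of macrophage or monocyte cells with Il23a, 2 of 113 in WT and 6 of 196 in the KO-labelled library also had Il12b, against 1.10% and 1.91% of those without. In dendritic cells, 0 of 1 and 2 of 5 cells with Il23a had Il12b. At this depth few single cells showed UMIs of both subunits in either library.

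Il6 was also mostly in macrophage or monocyte cells by number of UMIs, and was higher there in the KO-labelled library. It had 701 UMIs in 322 WT cells (13.0 CPM, 12.1 to 14) and 1177 UMIs in 367 cells of the KO-labelled library (28.9 CPM, 27.2 to 30.6), a ratio of 2.22 (2.02 to 2.44). In dendritic cells it was 3.53 CPM (1.82 to 6.16, 12 UMIs) and 21.1 CPM (16.4 to 26.8, 67 UMIs), a ratio of 5.99 (3.21 to 12.2). That log2 difference of 1.61 was past 1, as were those of 0.575% of genes in dendritic cells in the same direction. At an equal depth of 1000 UMIs the shares with Il6 were 1.16% (0.896 to 1.48) and 2.26% (1.80 to 2.79) of macrophage or monocyte cells, against 2 of 1168 and 0 of 471 T cells.

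By level, the highest Il6 of any gated population was in the few mast or basophil cells. They had 91 UMIs in 15 of 29 WT cells (433 CPM, 348 to 531) and 42 UMIs in 11 of 20 cells of the KO-labelled library (316 CPM, 227 to 427), a ratio of 0.730 (0.494 to 1.06). All 5 mast or basophil markers had UMIs in both libraries, and the macrophage markers summed to 1160 and 812 CPM. The top WT cell held 42 UMIs, and without the top cell of each library the levels were 269 and 201 CPM. Neutrophils of the KO-labelled library had 144 CPM, of which 1 both-type cell held 71 of 90 UMIs, and without it 31.0 CPM. The macrophage markers summed to 9421 CPM in that gate. Mesenchymal cells had 8 and 10 UMIs (5.23 and 8.55 CPM).

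Il6 UMIs were found in a larger share of macrophages with Il23a than of those without. Of WT macrophage or monocyte cells with Il23a, 20.4% also had Il6, against 5.47% of those without. In the KO-labelled library these were 22.4% and 9.19%. Cells with Il23a were deeper (medians 11383 and 8972.5 UMIs in WT, 11712 and 9930.5 in the KO-labelled library), and the part of depth in this was not tested.

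**Figure D3:**
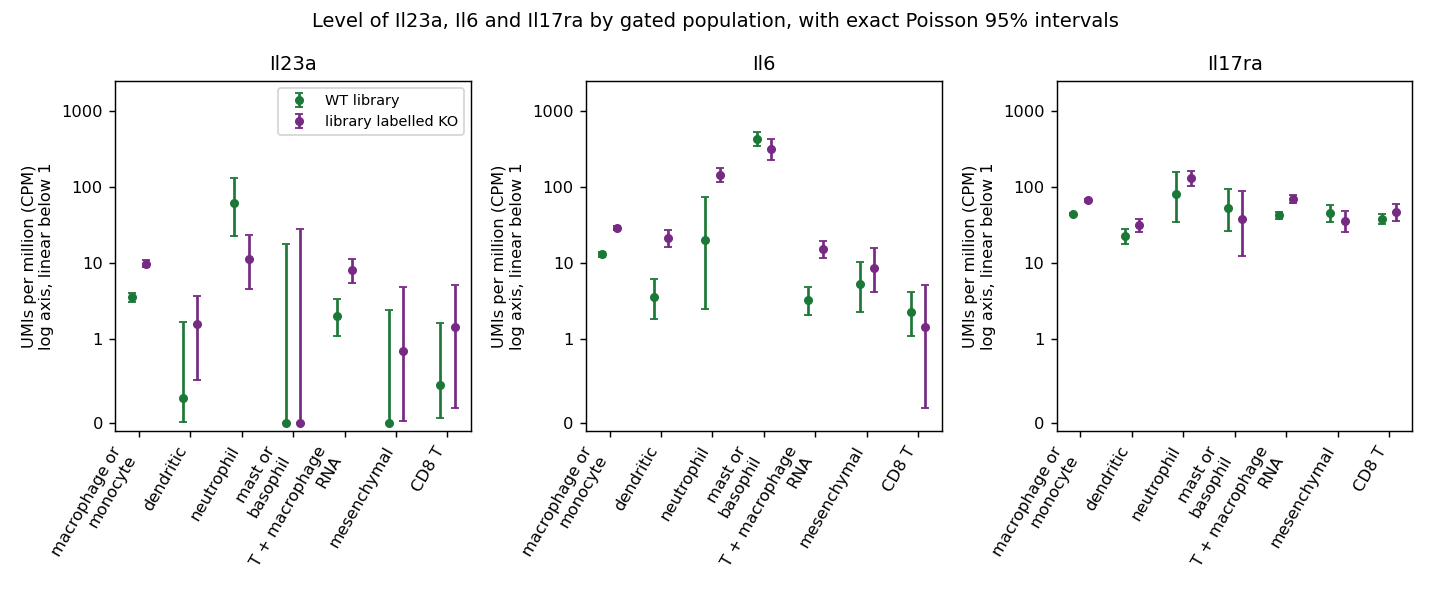
CPM of Il23a, Il6 and Il17ra in 7 gated populations (log axis, linear below 1), with the WT library in green, the KO-labelled library in purple and exact Poisson 95% intervals. In macrophage or monocyte cells all 3 genes are higher in the KO-labelled library, and Il6 is highest in mast or basophil cells (433 and 316 CPM).

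In all myeloid cells together (macrophage or monocyte, dendritic and neutrophil), the log2 differences were 0.75 for Il23a, 0.999 for Il6 and 0.55 for Il17ra, with 5 CPM added. Among genes with at least 20 UMIs in these cells, 0.356% passed 1 in either direction, and of the 3 members none did. Unlike for Il17a and Il23r in all T and other T cells, the higher level in the KO-labelled library was present in its male-type cells. Male-type macrophage or monocyte cells had 3.46 CPM of Il23a (2.95 to 4.03) in WT and 12 CPM (10.02 to 14.2) in the KO-labelled library, where female-type cells had 8.28 CPM (7.14 to 9.55). For Il6 these were 12.7, 26.4 and 28.8 CPM, and for Il17ra 44.5, 64.2 and 67.8 CPM.

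**Figure D4:**
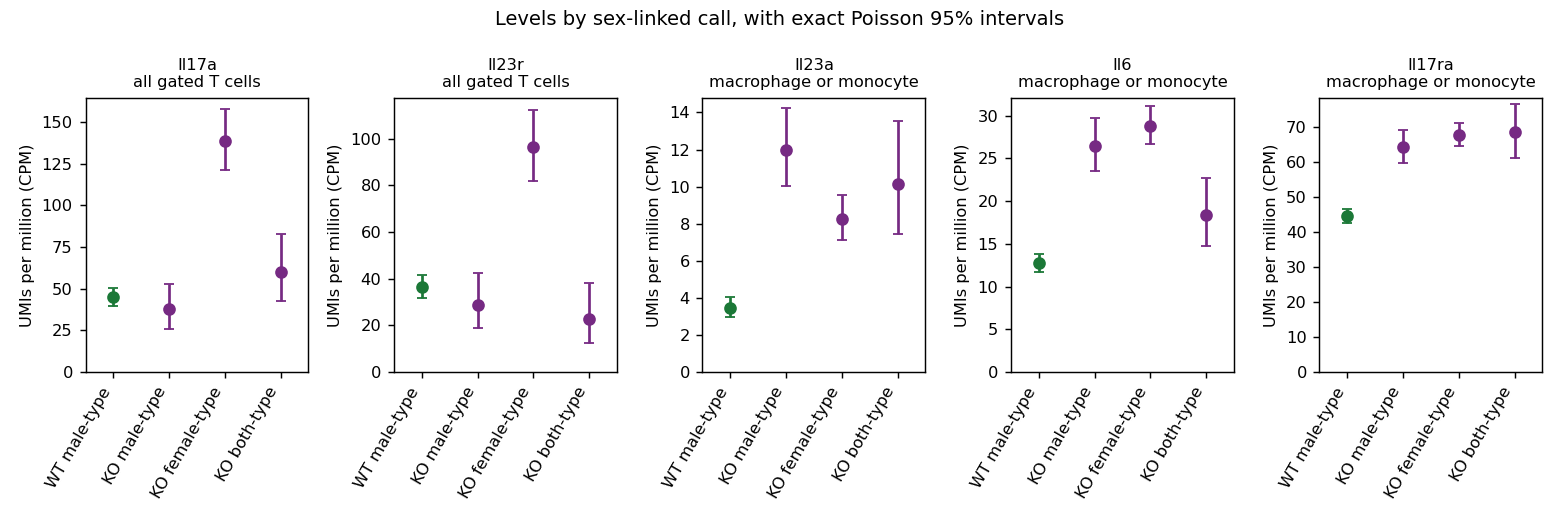
CPM by sex-linked call for Il17a and Il23r in all gated T cells and for Il23a, Il6 and Il17ra in macrophage or monocyte cells, with exact Poisson 95% intervals and each y axis starting at 0. In T cells the male-type cells of both libraries overlap (44.7 and 37.7 CPM for Il17a), whereas in macrophage or monocyte cells every call of the KO-labelled library lies above the male-type WT cells. The 37.7 CPM rests on few cells, with 14, 10, 8 and 2 Il17a UMIs.

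Macrophages were divided by 4 genes chosen after values had been seen. Cells with a UMI of the chemokine Cxcl3 were 8.23% of WT and 20.8% of KO-labelled macrophage or monocyte cells, and had 12.4 and 19.7 CPM of Il23a and 27.6 and 70.8 CPM of Il6. Cells without Cxcl3 had 2.59 (2.15 to 3.08) and 6.81 (5.93 to 7.79) CPM of Il23a, and 11.5 (10.6 to 12.5) and 16.4 (15.0 to 17.9) CPM of Il6, so the difference between the libraries was present on both sides. Cells without the complement gene C1qa, which marks differentiated macrophages, had 11 and 28.2 CPM of Il23a and 13.2 and 79.7 CPM of Il6, against 3.18 and 8.57 CPM and 13.0 and 25.6 CPM in cells with C1qa. With the monocyte gene Ly6c2, Il6 was 13.3 and 68.3 CPM, and without it 13.0 and 22.6 CPM. With Arg1 (arginase), Il23a was 4.07 and 11.6 CPM, and without it 2.16 and 3.80 CPM.

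**Figure D5:**
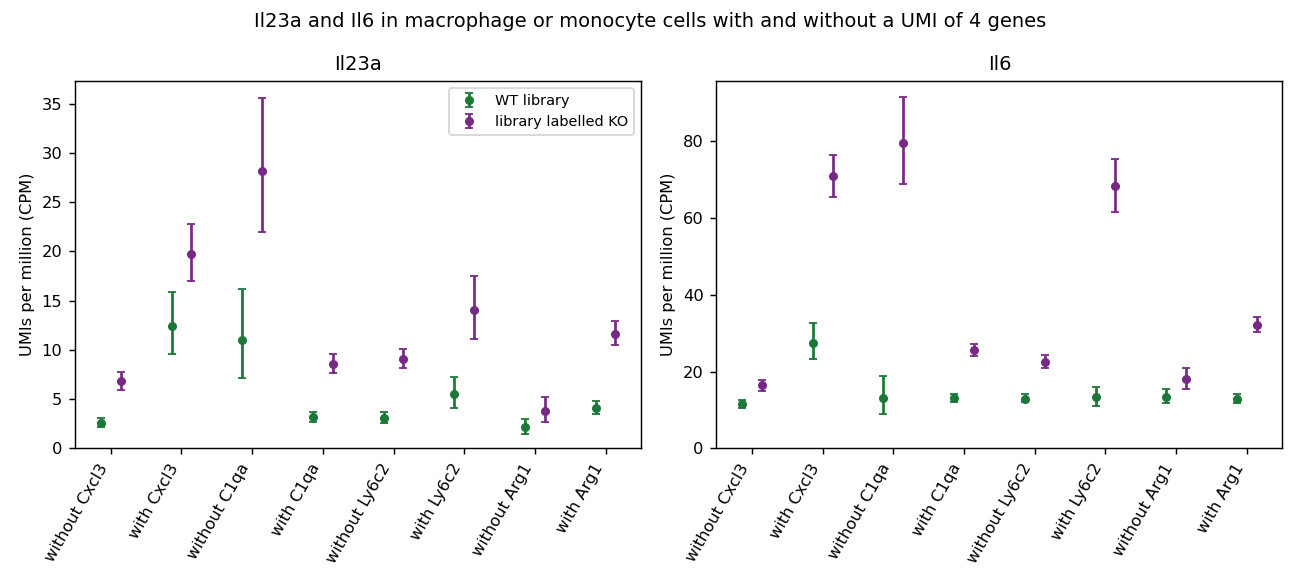
CPM of Il23a and Il6 in macrophage or monocyte cells with and without a UMI of Cxcl3, C1qa, Ly6c2 or Arg1, by library, with exact Poisson 95% intervals and y axes starting at 0. In the KO-labelled library, Il6 reaches 70.8 CPM with Cxcl3 and 79.7 CPM without C1qa, and in WT it stays between 11.5 and 27.6 CPM in all 8 classes.

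Il17ra, the receptor chain through which IL-17A and IL-17F act, was found in all the larger populations. Over all kept cells it was 42.6 CPM (41.2 to 44.1, in 27.7% of cells) in WT and 63.2 CPM (61.1 to 65.3, in 38.4% of cells) in the KO-labelled library, a ratio of 1.48 (1.41 to 1.56). Macrophage or monocyte cells had 44.1 and 66.6 CPM, a ratio of 1.51 (1.43 to 1.60), and dendritic cells 22.3 and 31.5 CPM, a ratio of 1.41 (1.04 to 1.93). In gamma delta, CD4 and other T cells the ratios were 1.43 (0.389 to 4.46), 1.15 (0.713 to 1.89) and 1.34 (0.917 to 1.94), whose intervals include 1. Mesenchymal cells (0.796, 0.529 to 1.19) and NK cells (0.709, 0.396 to 1.21) had ratios below 1 with intervals that include 1. Neutrophils had the highest level in the KO-labelled library, at 130 CPM (103 to 162), and 81.0 CPM (35.0 to 160) in 18 WT cells. Macrophage markers summed to 9421 CPM in the former and 22703 CPM in the latter, and their RNA's part in these levels was not tested. At an equal depth of 1000 UMIs, 4.66% and 7.82% of macrophage or monocyte cells had a UMI.

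The partner chain Il17rc, needed with Il17ra for IL-17A and IL-17F, was at 0.427 and 0.932 CPM in macrophage or monocyte cells. For IL-6, the receptor Il6ra was 90.9 and 81.3 CPM there and the signalling chain Il6st 29.2 and 25.1 CPM, with ratios of 0.894 (0.855 to 0.934) and 0.859 (0.793 to 0.930). In all T cells Il12rb1, the partner of Il23r, was 12.8 and 13.0 CPM, a ratio of 1.01 (0.686 to 1.48).

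The surrounding pathway was described by 10 gene lists, which overlap and are given by counts of members with at least 20 UMIs. In all T cells, 1.33% of all genes passed a log2 ratio of 1 in either direction, and the median over all genes was -0.02. Of the 22 genes of the type 17 lymphocyte programme all were measured, 16 were higher and 6 lower in the KO-labelled library, none passed 1, and the median was 0.35. Within gates the medians over the measured genes of this list were 0.52 in gamma delta, 0.006 in CD4, -0.006 in CD8 and 0.09 in other T cells. CD4 T cells were 10.3% and 29.0% of the pooled cells, and CD8 T cells 60.3% and 37.6%. The part of this change in cell mix in the pooled values was not tested. Maf, a factor for IL-17 and IL-10 production, was 192 and 387 CPM, and Ccr6 5.81 and 13.9 CPM, while Stat3, the signal transducer of IL-6 and IL-23, was 1559 and 1149 CPM and Scart1 55.9 and 39.8 CPM. In CD4 T cells alone Maf was 631 and 608 CPM, and in CD8 T cells alone 26.6 and 92.7 CPM. Of 20 IL-17 response genes 16 were measured and 14 higher, 9 of them past 1, with a median of 1.25. S100a8 and S100a9, which are also neutrophil markers, led this list with 3 and 138 and with 2 and 287 UMIs, of which 131 and 269 were in CD4 T cells of the KO-labelled library, and Zc3h12a, a brake on IL-17 signalling, was 91.5 and 84.8 CPM. RNA of macrophages and neutrophils was present in the T cell gates, and its part in the response gene counts was not tested.

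Of the IL-17 family ligands and receptors 5 of 11 were measured (4 higher, 1 past 1), and of the IL-23 and IL-12 family 10 of 13 (5 higher, none past 1), with Il12b at 42.0 and 22.0 CPM. The IL-6 family and signalling list had 8 of 10 measured (6 higher, 1 past 1, Osm at 25.2 and 56.7 CPM), and the IL-22 axis 3 of 5 (3 higher, 1 past 1). The cytokines that drive the programme had 7 of 10 measured (5 higher, 2 past 1), with the interleukin-1 genes Il1a at 8.19 and 50.7 CPM and Il1b at 216 and 578 CPM. IL-17 receptor signalling had 12 of 13 measured (8 higher, 1 past 1, Cebpb at 13.9 and 36.5 CPM). Il1a and Cebpb were also higher in macrophage or monocyte cells of the KO-labelled library, and Il12b was high in dendritic cells. The T cell gates held macrophage marker RNA, summed to 1652 and 1126 CPM in CD4 and 1582 and 1492 CPM in CD8 T cells. The part of such RNA in the levels of Il1a, Il1b, Il12b and Cebpb was not tested. Gamma delta receptor segments had 6 of 17 measured (1 higher, 5 lower, none past 1), and a contrast list of cytokines outside the IL-17 family 7 of 9 (6 higher, 1 past 1). The member past 1 was Il10, a regulatory cytokine, at 20.9 and 66.1 CPM, while Ifng, the defining type 1 cytokine, was lower at 330 and 258 CPM. In CD4 T cells alone Ifng was 227 and 227 CPM, and CD8 T cells were 60.3% and 37.6% of the pooled cells.

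In gamma delta T cells the lists rest on 57 and 17 cells, and 16.4% of all measured genes passed 1 in either direction. There 17 of the 22 type 17 genes were measured, 14 were higher and 3 lower, and 4 and 1 passed 1, with a median of 0.52 against -0.08 over all genes. Maf was 192 and 399 CPM, a ratio of 2.08 (1.35 to 3.17), and Tmem176a, a membrane protein of IL-17 producing lymphocytes, 192 and 429 CPM, a ratio of 2.24 (1.47 to 3.38). Cxcr6, a tissue homing receptor, was 335 and 215 CPM, a ratio of 0.641 (0.381 to 1.03), and Zbtb16, the factor PLZF of innate-like T cells, 582 and 562 CPM, a ratio of 0.966 (0.700 to 1.31). In CD4 T cells 16 type 17 genes were measured and 8 were higher, with a median of 0.006 against -0.05 over all genes. Of these 1 passed 1, Ahr, the aryl hydrocarbon receptor (34.5 and 81.9 CPM), where 4.1% of all measured genes passed 1 in either direction. In other T cells 20 were measured and 12 were higher, none past 1, against 5.05% of all measured genes in either direction.

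In macrophage or monocyte cells, 0.358% of genes passed 1 in either direction. Of the 20 IL-17 response genes 17 were measured, 16 were higher and 8 passed 1, with a median of 0.93 against 0.00 over all genes. Cxcl3, a neutrophil attractant, was 33.4 and 314 CPM, a ratio of 9.40 (8.94 to 9.88), and the acute phase gene Saa3 was 1.08 and 22.0 CPM, a ratio of 20.4 (15.6 to 27.1). Mmp9, a matrix protease, was 27.1 and 35.3 CPM, and Zc3h12a 113 and 103 CPM. Of the cytokines that drive the programme all 10 were measured, 7 were higher and 1 passed 1, Il1a at 121 and 252 CPM. All 13 IL-17 receptor signalling genes were measured, 8 were higher and 1 reached 1, Cebpb at 72.8 and 151 CPM. In the IL-6 family list all 10 were measured and 5 were higher, none past 1, and Lif, a relative of Il6, was 5.26 and 14 CPM. These genes respond to many signals besides IL-17, and their counts do not show which signal the cells had received.

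Likeness to Il17a, Il23a and Il6 was measured as Pearson's r of log2 levels over 14 gated populations of both libraries, 28 points that share libraries and depth, among 12884 genes, and is a description. The genes most like Il17a were Actn2 (r = 0.922), Zbtb16 (0.848), Plcb4 (0.844), Ablim3 (0.838) and Adam12 (0.833). For Il23a they were Lipc (0.944), S100a8 (0.883), Prtn3 (0.878), Arhgef37 (0.872) and Gm48293 (0.867). For Il6 they were Rab44 (0.866), 4930445E18Rik (0.855), Papss2 (0.845), I830077J02Rik (0.842) and Neat1 (0.840). The highest Il23a point was the WT neutrophil gate, with 6 UMIs in 2 of 18 cells, and S100a8 is a marker of that gate. The part of this point in the correlations was not tested.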

How the data were processed

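The authors deposited 1 sparse matrix of raw UMI counts for each library, genes by cell barcodes, which Cell Ranger 8.0.1 had written per the file headers. The submitters' processing notes name mm10 and Seurat 3. A microwell chip is described in the labels' protocols but the barcodes have 16 bases, and the chemistry is not settled here. Whether the authors filtered barcodes beforehand is not stated. Barcodes were kept with at least 500 UMIs, 200 genes and at most 25% mitochondrial UMIs, which removed only KO-labelled barcodes (1053 for depth, 7 for mitochondrial share). Scrublet (scanpy 1.11.5) marked under 0.5% by its own threshold and so had not worked. Barcodes in the top 5% of its scores were dropped instead (457 and 319). The deposited counts sum to 85367638 and 62465176 UMIs.

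Populations were gated per cell on raw UMIs, with markers fixed first and thresholds set after the matrices had been read. NK, dendritic and B or plasma gates needed 2 markers, neutrophil, mast or basophil and macrophage or monocyte gates 3. UMIs were summed per library and population and given as UMIs per 1000000 (CPM). Log2 ratios of KO over WT add 5 CPM to both. Intervals are exact Poisson (levels), exact conditional binomial (ratios) and Clopper-Pearson (shares), at 95%, and cover counting error only. A count of 0 allows 3 counts. Cells are not replicates, so no test was run. The 8 members are named whatever their value, and within a list the 2 highest and 2 lowest ratios with at least 50 UMIs are eligible. Other genes named for receptor chains, partners or marker splits were chosen after their values were seen. One list gene is not reported here by name. The members and lists were chosen with earlier results of these data known. Fixed names Tcrg-C1, Tcrg-V6 and Cd163l1 are Trgc1, Trgv6 and Scart1 in the files. Of 55357 gene identifiers 52081 match GENCODE M21. The ratio was tested on simulated counts. Alternatives, 14 planned and 3 added after seeing the data, changed filters, doublet removal, gates, depth, scaling, pseudocount and sex-linked calls. Python 3.11.15, scipy 1.17.1 and pandas 2.3.3 were used.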

Additional observations from a re-analysis of the deposited data

Results flagged for a closer look

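Log2 ratios of the KO-labelled library over WT pointed in opposite directions in some pairs of populations. With 1 library per group these differences were not tested. Il17a differed by 1.51 between other T cells (1.41) and macrophage or monocyte cells (-0.10), and by 1.31 between CD4 T cells (1.21) and macrophage or monocyte cells. In macrophage or monocyte cells 27 of the 33 WT Il17a UMIs were in 1 cell, against 10 UMIs in the KO-labelled library. The direction of the -0.10 rests on that cell. Il23r was lower in dendritic cells of the KO-labelled library (-0.57), and also in CD4 T cells (-0.58), but higher in 4 other populations: the log2 ratios differed by 1.25 for gamma delta T cells, 1.50 for CD8 T cells, 1.15 for other T cells and 0.654 for macrophage or monocyte cells. In CD8 T cells 9 of the 10 Il23r UMIs of the KO-labelled library were in 1 cell.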

How the results depend on the processing

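No paired analysis was possible because there is 1 library per group. The values are log2 ratios of KO over WT unless said otherwise, and Il22 in gamma delta T cells gave none, with 0 UMIs in both libraries. With gates that bar Trbc UMIs only 2 to 4 gamma delta T cells remained: without Trdc the values were 5.95 for Il17a, -1.02 for Il23r, 3.86 for Il17ra and -2.65 for Trdc, with a ratio of T cell shares of 4.97, and with Trdc they were 5.75, -1.51, 3.10 and -1.93, with a ratio of 2.48. Without the limit on macrophage markers Il17a in gamma delta T cells was 0.916. Among male-type cells alone Il17a was -0.831 in gamma delta T cells, -4.29 in other T cells and -0.221 in all T cells, Il23r was -2.75 in other T cells and -0.294 in all T cells, and Il23a in myeloid cells was 0.98. The -4.29 rests on 0 Il17a UMIs in 25 male-type other T cells of the KO-labelled library. Without both-type cells Trdc in gamma delta T cells was 0.294. In myeloid cells, thinning to 1000 UMIs gave 0.941 for Il23a and 0.718 for Il17ra, a pseudocount of 1 CPM gave 1.21 for Il23a and 1.20 for Il6, and one of 20 CPM gave 0.318, 0.621 for Il6 and 0.434 for Il17ra. The causes were not tested beyond what each setting itself changes (fewer cells, another pseudocount). In all, 141 of 162 values of the main results stayed close to those given, and Il17a in CD4 T cells was 0.876 to 2.06 over its 17 alternatives. The 3 alternatives added after seeing the data, among them leaving out the top cell of each library, reversed no value. Depth limits Il17f and Il22, whose differences rest on few UMIs.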
